A study of Mus musculus with 11 samples.

Results

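Gamma delta T cells are T lymphocytes whose antigen receptor is built from a gamma chain and a delta chain. They were taken here from lungs of aged mice that were dissociated and sequenced cell by cell from the 3′ ends of their RNA, in droplets (10x Genomics). A cell was counted as a member when it held at least 1 UMI (unique molecular identifier, 1 counted RNA molecule) of Trdc, the delta chain constant region, and at least 2 UMIs over Cd3d, Cd3e and Cd3g, which encode the CD3 proteins of every T cell receptor. A member also had no UMI of Cd4, Cd8a, Cd8b1 or Cd79a, the last of these a B cell gene. This rule found 728 members among 69267 barcodes, those of 1000 to 30000 UMIs whose mitochondrial share was no more than 14%. The levels of the genes in the rule describe how the cells were chosen and were not compared with those of other cells.

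The 11 libraries, each treated as 1 replicate, came from 4 genotypes at the locus of p21, the cell cycle inhibitor encoded by Cdkn1a. The labels give 1 library as wild type (+/+), called WT, 3 as p21 heterozygotes (+/-), called p21Het, 5 as p21 mTert (+/mTert), called p21mTert, and 2 as p21 mTertCD (+/mTertCD), called p21mTertCD. The labels do not spell out the mTertCD allele. Going by its title, the study asked about induction of mTert, the mouse telomerase reverse transcriptase, in p21-positive cells, and about capillaries and emphysema. All mice outside the WT library carried 1 wild-type p21 allele beside the altered one, and all ages were given as 18 months, except 19 months for p21Het_1 and 20 months for p21mTert_1, whose titles give 18 months. These 2 libraries and WT_1 belong to a first deposit and the other 8 to a later one, so that deposit and age cannot be told apart for p21Het_1 and p21mTert_1. No label says how many mice made up a library, and p-values measure only the spread between libraries.

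Libraries held 42038434 to 85988955 UMIs, and the median member held 5219.5 UMIs, with a range of 1114 to 27923. Members of the first deposit had a median mitochondrial share of 6.12% to 6.47%, and those of the later deposit 3.02% to 5.14%. Among the barcodes that passed the filter, 617 occurred in 2 or more libraries, but 0 of them were members in more than 1 library. Doublet scores marked 18 members. The library p21mTert_5 held only 12 members, against 34 to 101 in the other 10, and stood apart in several measures given below.

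Members were checked against Cd163l1, a scavenger receptor gene known from gamma delta T cells, and against the gamma chain genes, none of which the rule used. A Cd163l1 UMI was found in 523 members (71.8%), and in 1.24% of CD4 T cells, 2.27% of CD8 T cells and 1 of 1266 natural killer (NK) cells. Tcrg-C1, a gamma chain constant region, was found in 587 members (80.6%), against 3.72% of CD4 T cells, 2.08% of CD8 T cells and 0.711% of NK cells. Trac, the constant region of the alpha chain of conventional T cells, was found in 205 members (28.2%). Most members thus held a marker that the rule did not use. Cd163l1 was however given together with the label, with earlier results of these data known, so that it is no independent check.

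The median member held 11 Trdc UMIs and 15 CD3 UMIs. The 47 members with a single Trdc UMI are described beside the 681 with more, with no test. Of the 47, 8.51% had Cd163l1, 19.1% had Tcrg-C1 and 57.4% had Trac, against 76.2%, 84.9% and 26.1% of the 681. Just outside the rule lay 3574 T cells without Trdc, Cd4 or Cd8 UMIs. Of these, 1.01% had Cd163l1, 22.1% had Tcrg-C1 and 79.0% had Trac, so that Tcrg-C1 was not particular to the members. At the CD3 threshold, 6 members had 2 CD3 UMIs and 18 barcodes with 1 CD3 UMI stayed outside, as did 27, 33 and 10 barcodes with a single Cd4, Cd8 or Cd79a UMI. Free RNA was gauged in cells that should lack Trdc, which was found in 0.167% of 15593 B cells (median 4228 UMIs) and 0.146% of 6184 endothelial cells (median 3664 UMIs). It was found in 1.34% of CD4 T cells and 2.87% of CD8 T cells before Trdc was asked about. In NK cells it reached 19.0%, at a median of 4920 UMIs, although those cells held no CD3 UMI.

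As background, gamma delta T cells leave the thymus in waves that settle in different tissues and tend to use particular pairs of gamma and delta variable (V) segments. Cells that pair Vγ6 with Vδ1 settle early in life in lung, skin and other barrier tissues, carry the transcription factor c-Maf (Maf), and make interleukin-17A after signals from interleukin-23 and interleukin-1. Other gamma delta T cells circulate, carry CD27 and natural killer receptors, and make interferon-gamma. In the lung, gamma delta T cells are known for early defence against bacteria and for exchanges with macrophages and neutrophils.

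The V segments are shown because they are what distinguishes one gamma delta T cell lineage from another. The last bases of 4 of them are printed 5′ to 3′ from the GENCODE M21 transcripts (GRCm38), with capitals on the last TGT, the codon of the conserved cysteine from which the variable loop of the receptor begins. Trdv4 encodes Vδ1 and lies at chr14:54074905-54075515 on the plus strand, inside the T cell receptor alpha and delta locus. Tcrg-V6 encodes Vγ6 and lies at chr13:19190356-19190929 on the plus strand. Trgv2 lies at chr13:19336573-19337167 on the minus strand, and Tcrg-V1 at chr13:19339989-19340454 on the plus strand, both also in the gamma locus.
Trdv4: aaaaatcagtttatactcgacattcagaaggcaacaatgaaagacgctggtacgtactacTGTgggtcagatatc
Tcrg-V6: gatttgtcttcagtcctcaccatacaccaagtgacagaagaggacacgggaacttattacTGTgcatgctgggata
Trgv2: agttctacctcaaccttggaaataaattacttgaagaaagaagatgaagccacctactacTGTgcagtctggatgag
Tcrg-V1: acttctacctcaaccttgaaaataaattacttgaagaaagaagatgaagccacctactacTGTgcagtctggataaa

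Over the 63 bases up to and including that codon, Trgv2 and Tcrg-V1 matched at 61 (96.8%), while every other pair of these segments matched at 29 to 34 (46.0% to 54.0%). Reads from Trgv2 and Tcrg-V1 may therefore be split or lost between them, and their separate counts are uncertain. The same holds for the constant regions Tcrg-C1 and Tcrg-C2, whose transcripts of 924 and 914 bases share an identical run of 104 bases, whereas neither shares more than 29 with Tcrg-C4.

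Trdv4 was the leading delta segment. It was found in 470 members with 2231 UMIs, while Trdv2-2 was found in 13, Trdv1 in 9 and Trdv5 in 8 members. Among gamma segments, Trgv2 was found in 266 members, Tcrg-V6 in 203, Tcrg-V1 in 99, Tcrg-V5 in 39 and Tcrg-V4 in 32. A 3′ library reads mainly the constant end of a transcript, so that a missing V segment says little: 281 members had no gamma segment UMI, 275 had 1 gamma segment, 150 had 2, 21 had 3 and 1 had 4. Among constant regions, Tcrg-C4 was found in 369 members and Tcrg-C2 in 293.

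The partners found with each segment are given as descriptions, beside 64.6% with Trdv4, 71.8% with Cd163l1, 80.6% with Tcrg-C1 and 40.2% with Tcrg-C2 among all members. Of the 203 members with Tcrg-V6, 93.6% also had Trdv4, 97.0% had Cd163l1 and 98.5% had Tcrg-C1. Of the 470 with Trdv4, 96.4% had Cd163l1 and 34.7% had a UMI of Il17a, the gene of interleukin-17A. Of the 266 with Trgv2, 61.3% had Trdv4, 80.5% had Tcrg-C1 and 72.6% had Tcrg-C2, so that Trdv4 and Tcrg-C1 were close to their shares in all members. These sets overlap, since 80 of the members with Trgv2 also had Tcrg-V6. The few members with Trdv1 or Trdv5 looked different: 1 of 9 and 0 of 8 had Trdv4, and 2 and 3 of them had Cd163l1.

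Detection of these segments varied between libraries. Trdv4 was found in 49.1% of WT members, in 68.3%, 66.7% and 26.5% of p21Het members, in 64.0%, 65.8%, 76%, 58.4% and 16.7% of p21mTert members and in 86.9% and 65.4% of p21mTertCD members, in order of replicate. The low values were those of p21Het_3 and p21mTert_5, which held the fewest members, 34 and 12. Tcrg-V6 was also lowest in these libraries, at 5.88% and 8.33%, against 18.9% to 44% in the other 9. Trgv2 was found in 14.9% to 22.1% of members in the 3 first-deposit libraries and in 28.1% to 63.5% in the 8 later ones, without overlap. WT_1, labelled 18 months like the later libraries, had 20.8%. The part of deposit and of age in Trgv2 was not tested, and its close copy Tcrg-V1 showed overlapping ranges, 5.94% to 18.9% and 8.77% to 26.5%.

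**Figure D1:**
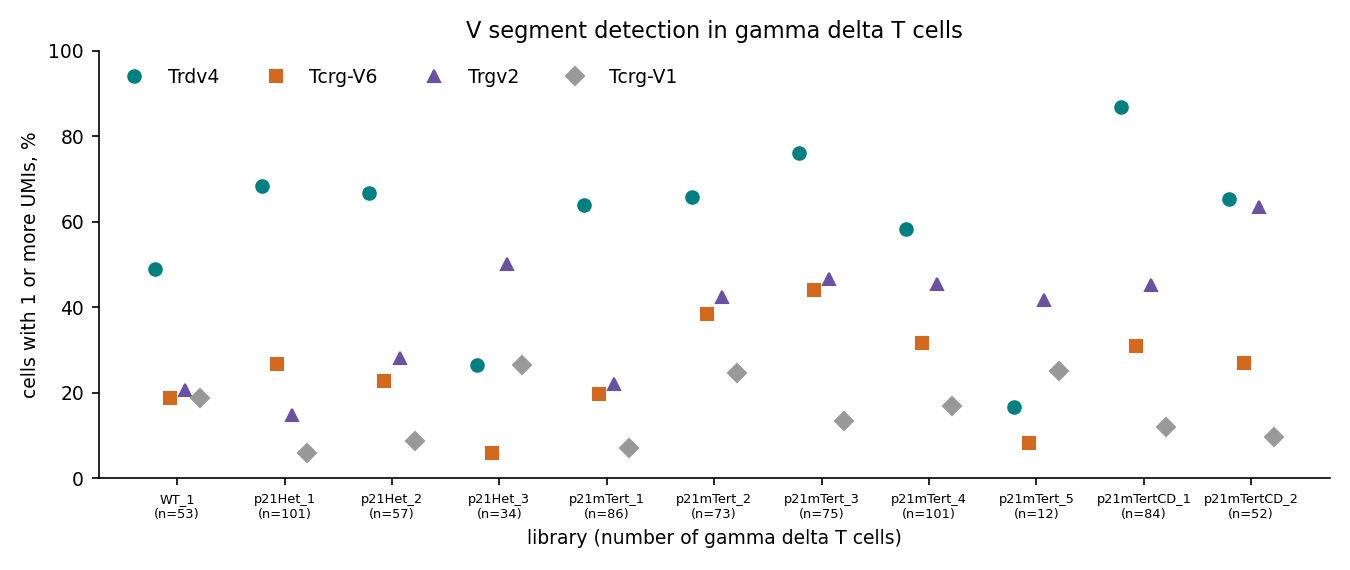
Percent of gamma delta T cells (y axis) with at least 1 UMI of Trdv4, Tcrg-V6, Trgv2 or Tcrg-V1 in each of the 11 libraries (x axis, with the number of cells in brackets). Trdv4 is lowest in p21mTert_5 (16.7%) and p21Het_3 (26.5%), and Trgv2 is lowest in the 3 libraries WT_1, p21Het_1 and p21mTert_1.

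Gamma delta T cells were then set beside CD4 T cells (3386), CD8 T cells (5781) and NK cells (1266) of the same libraries, with CD4 and CD8 T cells chosen by the analogous rules and no Trdc UMI, and NK cells by Ncr1 or Klrb1c and no CD3 UMI, whatever their Trdc. UMIs were summed per library and class and fitted with edgeR's quasi-likelihood test with the library as a block, and a gene is called when its Benjamini-Hochberg adjusted p is under 0.05. The 3 comparisons share the gamma delta sums and are not independent. Levels are in CPM (counts per 1000000 UMIs), and differences are log2 fold changes with their SE. All 3 classes differed widely from the members: 27.3% of 6523 genes tested were called against CD4 T cells, 35.3% of 8115 against CD8 T cells and 37.3% of 5666 against NK cells. A gene entered the test when enough libraries of both classes together reached the level of the filter on low counts. Of the genes called higher in members than in CD4, CD8 and NK cells, 137 of 894, 196 of 1445 and 252 of 1087 reached it in gamma delta T cells alone. Of those called lower, 253 of 888, 392 of 1421 and 410 of 1029 reached it in the other class alone. For such genes the filter largely fixed the direction, so the counts of lists and the rankings by fold change below are descriptions of the genes that passed. The rule for the members fixes part of these differences, through Trdc transcripts that also carry Trdv4 and through the CD3 genes against NK cells.

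Tcrg-C1, the gamma chain constant region, was higher in members than in each of the other classes. It stood at 399, 653 and 805 CPM (lowest, median and highest of 11 libraries) in gamma delta T cells, at 2.11, 7.06 and 22.4 CPM in CD4 T cells and at 1.77, 4.53 and 12.2 CPM in CD8 T cells. No library of one class reached the range of the other. The log2 difference was 6.18 ± 0.19 (SE) against CD4 T cells and 6.75 against CD8 T cells. Of the gamma and delta receptor list (23 genes), 5 were tested against CD4 T cells, 7 against CD8 T cells and 5 against NK cells. The deposited files hold no gene under the names Tcrg-V2, Trgv1, Trgv4, Trgv5, Trgv6 or Trgv7. Trdc was left out as a gene of the rule, and the other untested genes had too few counts. Of those tested, 5, 6 and 5 passed the filter through the gamma delta sums alone, so that they had to be higher in members, and their number is no result.

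Trdv4 had 2231 UMIs in members and 2 in all CD4 T cells, a ratio of CPM of 5779 with a 95% counting interval of 1598 to 47749. Against CD8 T cells the ratio was 12938 (3577 to 106900). Trdv4 is carried on Trdc transcripts, and CD4 and CD8 T cells were chosen for having none, so that these ratios follow from the choice of cells. NK cells, taken whatever their Trdc, had 227 Trdv4 UMIs and stood at 12.5, 27.3 and 60.1 CPM (lowest, median and highest). In gamma delta T cells Trdv4 stood at 102, 551 and 806 CPM, above NK cells in every library, with a log2 difference of 3.94 ± 0.24 (SE). Members were chosen for Trdc and Trdv4 passed the filter through them alone, so the direction of this difference also follows from the choice of cells. The gamma constant region Tcrg-C1 by contrast had 12 UMIs in all NK cells.

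The alpha beta T cell genes were mostly lower in members than in CD4 and CD8 T cells, though not absent. Trac stood at 51.1, 100 and 130 CPM (lowest, median and highest) in gamma delta T cells, at 500, 649 and 690 CPM in CD4 T cells, at 273, 350 and 473 CPM in CD8 T cells and at 0, 3.93 and 9.39 CPM in NK cells. The log2 difference was -2.66 ± 0.12 (SE) from CD4 and -2.05 ± 0.12 from CD8 T cells, and the ranges did not overlap. All 8 genes of this list fell against CD4 T cells (13.6% of all genes), 3 of them tested through CD4 T cells alone. Among the 8 were Cd5, a brake on receptor signals (-3.14), Cd28, the main costimulatory receptor (-2.72), and Cd40lg, the helper ligand CD40L (-2.68). The smallest of these, Lat at -0.31 (adjusted p 0.0347), a scaffold of receptor signalling, lost its call when Trdc was asked at 2 UMIs (adjusted p 0.0872). Against CD8 T cells 6 of 8 fell and Cd40lg rose by 2.02, with 17.5% of all genes called lower, and 1 of the 6 was tested through CD8 T cells alone. Against NK cells 4 of 5 tested rose and 0 fell (19.2% and 18.2% of all genes), 1 of the 4 tested through gamma delta T cells alone. The beta chain transcripts were less unequal, with Trbc2 at -0.95 and Trbc1 at -0.73 against CD4 T cells, and Trbc2 was detected in 87.6% of members. The share of this signal that comes from alpha beta T cells, from free RNA or from the gamma delta T cells themselves was not tested.

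**Figure D2:**
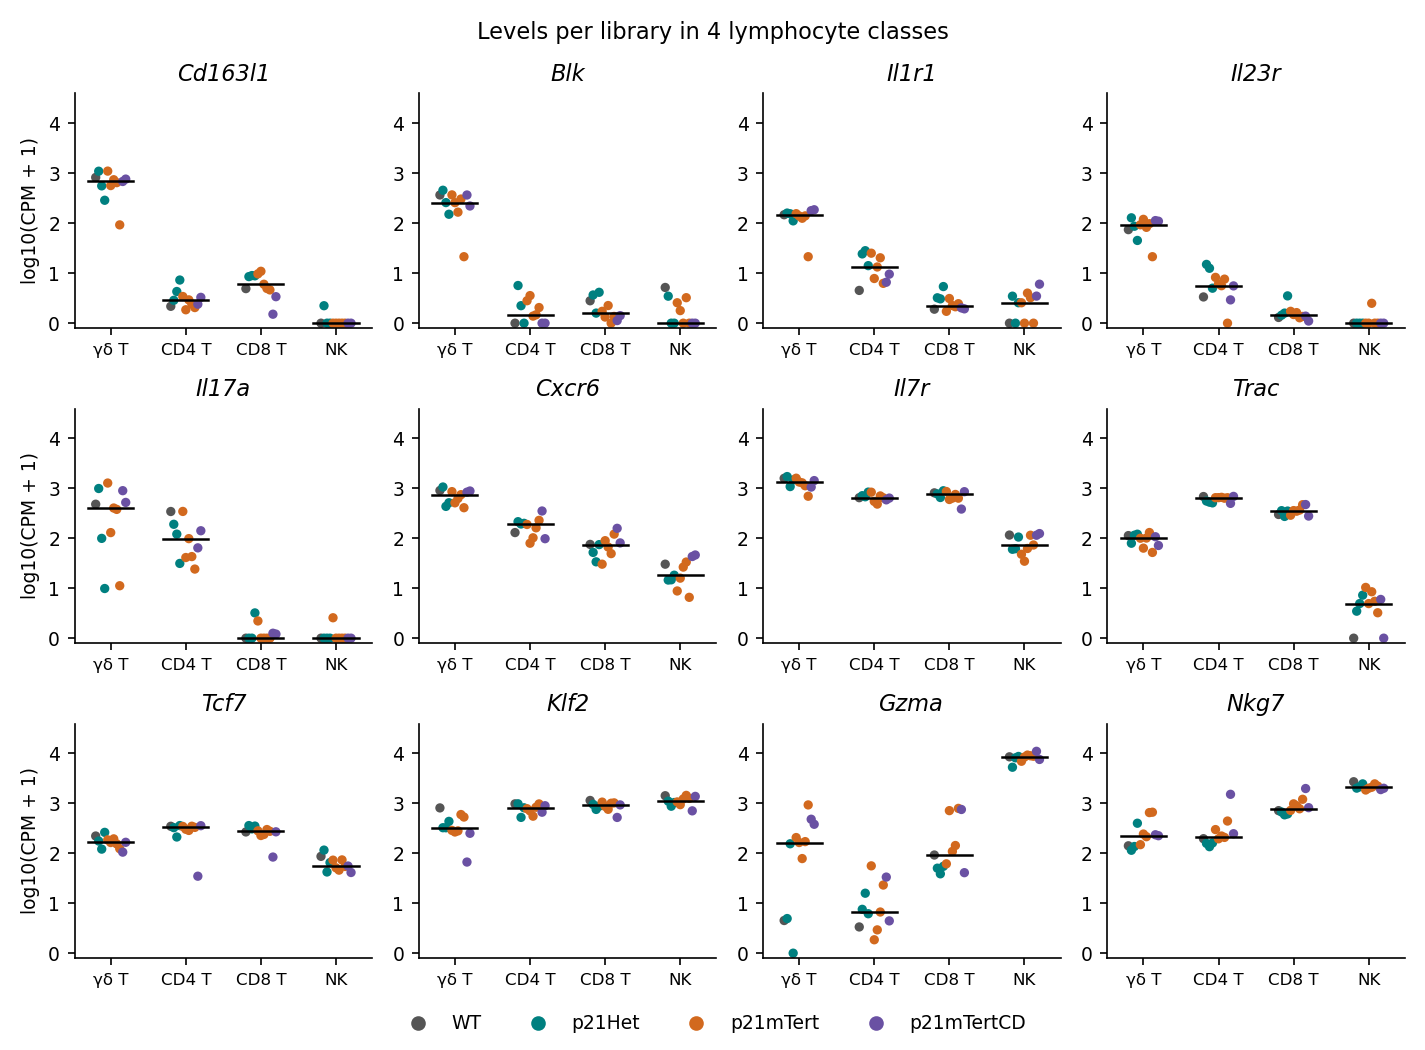
Levels of 12 genes as log10(CPM + 1) (y axis) in gamma delta T cells, CD4 T cells, CD8 T cells and NK cells (x axis), with 1 point per library and class (11 libraries) and a line at the median. Cd163l1, Blk and Il23r are high in gamma delta T cells alone of these 4 classes, Trac is intermediate, and the medians of Tcf7 and Klf2 lie below those in CD4 T cells.

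Cd163l1 and Blk had higher levels in gamma delta T cells than in the other classes, and both passed the filter through gamma delta T cells alone in all 3 comparisons. Cd163l1 stood at 92.0, 688 and 1110 CPM (lowest, median and highest) in gamma delta T cells and at most at 6.31 CPM in CD4, 9.94 CPM in CD8 and 1.24 CPM in NK cells. The lowest value was that of p21mTert_5. The log2 difference of Cd163l1 was 8.17 ± 0.24 (SE) against CD4 and 6.78 ± 0.32 against CD8 T cells, higher in 11 of 11 libraries. Blk, a Src-family kinase known from B cells and from interleukin-17-producing gamma delta T cells, stood at 20.5, 259 and 458 CPM in gamma delta T cells and at most at 4.68 CPM in CD4 T cells. Of other B cell genes, Ms4a1 was found in 3 members, Cd79b in 66 (9.07%, against 2.19% of CD4 and 4.32% of CD8 T cells) and Ighm in 30.4% (43.9% of CD4 and 42.7% of CD8 T cells). Cd79b was called higher than in CD8 T cells (1.24) and Ighm lower than in CD4 T cells (-1.12), and the part of B cell RNA in the level of Blk was not tested. The log2 difference of Blk was 8.25 ± 0.30 against CD4 T cells, 8.06 against CD8 T cells and 7.73 against NK cells.

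The same holds for Il23r, Il1r1 and Kcnk1. Il23r, the receptor for interleukin-23, differed by 4.06 ± 0.24 from CD4 T cells, and against NK cells it had 413 UMIs to 1, a ratio of 739 (95% counting interval 132 to 29250). Il1r1, the receptor for interleukin-1, differed by 3.44, Zbtb16, the innate-like T cell factor PLZF, by 3.91, Kcnk1, a potassium channel gene, by 5.82, Tmem176b by 2.51 and Actn2 by 3.15. Maf was called against CD8 T cells (3.14) but not against CD4 T cells (0.17, adjusted p 0.418).

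The interleukin-17 genes themselves did not move together. Il17a stood at 8.88, 403 and 1279 CPM (lowest, median and highest) in gamma delta T cells and at 23.2, 97.6 and 344 CPM in CD4 T cells. The log2 difference was 1.81 ± 0.34 (SE, adjusted p 0.000544), higher in 8 of 11 libraries, and the ranges overlapped. In CD8 T cells Il17a was found in only 16 UMIs, and it was tested there through the gamma delta sums alone. Il17f, its close relative, went the other way: it stood at 7.03 ± 9 CPM (SD, n = 11) in gamma delta T cells and 42.8 ± 29.1 CPM in CD4 T cells, a log2 difference of -2.46 ± 0.33. Only 18 members (2.47%) had an Il17f UMI and 3 had one of Il22, whereas 181 (24.9%) had one of Il17a. Ahr, the aryl hydrocarbon receptor, fell by 0.69. Ccr6, a chemokine receptor known from interleukin-17 producers, was not called (-0.40, adjusted p 0.259), nor was 5830411N06Rik, a neighbour of Cd163l1 in the same gene family (1.35, adjusted p 0.0869).

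Among the other genes, those with the largest increase over CD4 T cells were Tns4 (7.09), Rbpms2 (6.22) and Adgrg5 (4.98). In CD4 T cells these reached at most 0.936, 3.17 and 4.70 CPM, so that their fold changes rest on levels near the floor. The gene with the largest decrease was Tnfrsf4, the costimulatory receptor OX40. It stood at 0, 4.56 and 17.8 CPM (lowest, median and highest) in gamma delta T cells and at 156, 345 and 439 CPM in CD4 T cells, a log2 difference of -5.86 ± 0.24 (SE). Ctla4, an inhibitory receptor, stood at 4.04, 10.2 and 42.1 CPM against 176, 378 and 425 CPM, a log2 difference of -4.65 ± 0.22. Izumo1r (-4.96), a folate receptor gene of CD4 T cells, Ttn (-4.81), Gpm6b (-4.14), Trat1 (-3.66), Tnfsf8 (-3.63), Ifi27l2a (-3.59), Slamf6 (-3.50) and Cd6 (-3.49) followed. A direction shared by all 11 libraries was a condition for this ranking, so it is no further result. Tnfrsf4 and Ctla4 were tested through CD4 T cells alone.

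Against CD8 T cells, the genes with the largest increase outside the receptor were Il17a, Blk, Tns4 (7.50), Il23r (7.08), Cd163l1, Kcnk1 (6.66), Sox13 (6.60), a transcription factor gene, and Il1r1 (6.32). In CD8 T cells Tns4, Il23r and Sox13 reached at most 0.890, 2.52 and 1.88 CPM, so that their fold changes rest on levels near the floor. Those with the largest decrease were Gzmm (-3.75), a granzyme gene, Tdrp (-3.53), Nsg2 (-3.30), Ccr7 (-3.15), the lymph node homing receptor, Ms4a4c (-3.08), Fam169b (-2.91), Cd6 (-2.84), Cmah (-2.80), Slfn1 (-2.74) and Sidt1 (-2.70).

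Against NK cells, the genes with the largest decrease included Gzma (-5.78), Adamts14 (-5.74), Klra3 (-5.53), Irf8 (-5.33), Khdc1a (-5.18), Klra4 (-5.16), Ccl4 (-5.02) and Prf1 (-4.96), which encodes perforin. The 4 NK markers tested, Klra4 among them, passed the filter through NK cells alone, which largely fixed their direction. Cma1 had 3 UMIs in members and 1836 in NK cells, a ratio of 342 (95% counting interval 117 to 1661). Serpinb9b had 0 UMIs in members and 494 in NK cells, so that it was at least 92.1-fold lower against a floor of 3 counts over the group. Higher in members were Ly6g5b (6.70), Pdcd1 (6.62), which encodes the inhibitory receptor PD-1, Tnfrsf25 (5.89) and Cxcr6 (5.12). The defining NK genes were scarce in members: Ncr1 was found in 2.34% and Klrb1c in 6.59%, against 90.3% for Klrb1c in NK cells, where these 2 genes chose the cells. The summed level of the 6 NK markers was 24.7 to 808 CPM in members and 3704 to 5425 CPM in NK cells.

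The cytotoxic genes, those of interferon-gamma and killing, included many that were scarce in members. Of 25 such genes, 23 were tested against CD8 T cells, of which 20 fell and 0 rose (17.5% and 17.8% of all genes), and 21 of 23 fell against NK cells and 1 rose (18.2% and 19.2%). Of those that fell, 8 and 14 passed the filter through CD8 or NK cells alone. Ccl5, a chemokine of cytotoxic cells, stood at 385, 1621 and 6634 CPM (lowest, median and highest) in gamma delta T cells and at 5610, 7194 and 16066 CPM in CD8 T cells, a log2 difference of -2.47. Eomes, a transcription factor of memory and killer cells, fell by 2.48, Ly6c2 by 2.59, Nkg7, a protein of cytotoxic granules, by 2.01 and Prf1 by 1.71. Against CD4 T cells 9 of 22 rose and 3 fell (13.7% and 13.6% of all genes), so that the number that fell lay at the background. Of these, 3 of the 9 passed the filter through gamma delta T cells alone and 1 of the 3 through CD4 T cells alone. Gzma, a granzyme, was higher by 4.03 ± 0.45, in 9 of 11 libraries, and its 825 UMIs came from 22 members (3.02%, against 2.16% of CD4 T cells). Klrk1, the activating receptor NKG2D (2.25), Klre1 (2.23) and Ly6c2 (1.79) were also higher, and Ifng, which encodes interferon-gamma (-2.11), Gzmk (-1.69) and Cd27 (-1.53) were lower. Several of the smaller differences from CD4 T cells lost their call within cells of 2000 to 8000 UMIs, among them Klrc2 (adjusted p 0.131), Klrd1 (0.437), Ctsw (0.545) and Il2rb (0.523), and Gzmk lost its call in the later deposit alone (0.0502).

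Genes of circulation were lower in members than in CD4 and CD8 T cells, while Cxcr6 was higher. Cxcr6, a chemokine receptor of resident lymphocytes, stood at 409, 747 and 1065 CPM (lowest, median and highest) in gamma delta T cells, at 78.7, 188 and 351 CPM in CD4 T cells and at 29.3, 73.7 and 158 CPM in CD8 T cells. Its range in members lay above both. The log2 difference was 2.08 ± 0.19 (SE) from CD4 and 3.15 from CD8 T cells. Of the naive and circulating list (10 genes), 9 of 10 fell against CD4 and 10 of 10 against CD8 T cells (13.6% and 17.5% of all genes), with median differences of -1.50 and -1.99 (all genes -0.02 and -0.02). Against NK cells 6 were tested, of which 2 rose and 3 fell (19.2% and 18.2% of all genes). Of those that fell, 0, 1 and 1 passed the filter through the CD4, CD8 or NK cells alone. Klf2, a factor that keeps T cells in circulation, stood at 65.9, 324 and 811 CPM in members and at 523, 815 and 980 CPM in CD4 T cells, a log2 difference of -1.21 ± 0.19. S1pr1, the receptor for exit from tissue (-1.78), Ccr7 (-2.08), Il6ra (-2.37), Igfbp4 (-3.09) and Lef1 (-1.22) were also lower than in CD4 T cells. Tcf7 (-0.67) lost its call in the later deposit alone (adjusted p 0.146).

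The residence list (12 genes) was split against CD4 T cells, where 4 of 11 rose and 3 fell (13.7% and 13.6% of all genes), 1 of the 3 tested through CD4 T cells alone. Cxcr6, Hilpda (1.28), Cd69 (0.78), a retention marker, and Nr4a1 (0.46), an early gene of receptor signalling, were higher, and Prdm1 (-0.60), Bhlhe40 (-0.46) and Rgs1 (-0.36) were lower. In the comparison with CD8 T cells 9 of 11 rose and 0 fell (17.8% and 17.5% of all genes), and with NK cells 3 of 10 rose and 4 fell (19.2% and 18.2%). Of those that rose, 1 of the 9 and 2 of the 3 passed the filter through gamma delta T cells alone. The checkpoint and costimulation list (12 genes) was also split: 6 of 9 fell against CD4 T cells and 2 rose (13.6% and 13.7% of all genes), one of these Pdcd1 (0.78). Of the 6, 3 were tested through CD4 T cells alone, Tnfrsf4, Ctla4 and Tnfrsf9. The calls of Nr4a1, Prdm1, Rgs1 and Pdcd1 against CD4 T cells were each lost in at least 1 alternative. Against CD8 T cells Pdcd1 (2.92), Icos (1.71), a costimulatory receptor, and Cd44 (1.51), an activation marker, were higher and Ctla4 (-1.47) and Tnfrsf18 (-0.72) were lower.

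Il7r, the receptor for the survival signal interleukin-7, was higher in members than in the other classes. It stood at 695, 1340 and 1724 CPM (lowest, median and highest) in gamma delta T cells, 484, 650 and 841 CPM in CD4 T cells, 384, 755 and 895 CPM in CD8 T cells and 33.8, 72.5 and 123 CPM in NK cells. The log2 difference was 0.97 ± 0.10 (SE) from CD4 T cells and 0.68 from CD8 T cells. Of 16 genes of cytokine receptors, 9 of 14 rose and 1 fell against CD4 T cells (13.7% and 13.6% of all genes), 8 of 14 rose and 3 fell against CD8 T cells (17.8% and 17.5%), and 9 of 15 rose and 3 fell against NK cells (19.2% and 18.2%). Of those that rose, 4, 5 and 6 passed the filter through the gamma delta sums alone, and the numbers that fell lay near or under the shares of all genes. Il2ra, the alpha chain of the interleukin-2 receptor, differed by 2.03 and 5.36, Il18r1, a receptor for interleukin-18, by 1.44 and 1.50, and Tnfrsf25, the receptor DR3, by 1.32 and 3.86. Il21r was lower in members than in either class (-0.92 and -1.17).

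Of the secreted cytokines and growth factors (15 genes), 9 were tested against CD4 T cells, of which 4 rose and 2 fell (13.7% and 13.6% of all genes). Tnf, which encodes tumour necrosis factor, stood at 40.9, 176 and 344 CPM (lowest, median and highest) in gamma delta T cells and at 15.4, 34.1 and 82.7 CPM in CD4 T cells, a log2 difference of 2.12 ± 0.20 (SE). Against CD8 T cells 7 of 8 rose (17.8% of all genes), 3 of them tested through gamma delta T cells alone, and Ifng fell, tested through CD8 T cells alone. Among those that rose were Csf2, the growth factor GM-CSF (4.74), Areg, the epidermal growth factor family member amphiregulin (3.33), Tnf (3.30), Lta (2.87), Ltb (1.04) and Tgfb1 (0.56). Against NK cells 3 of 6 rose and 2 fell (19.2% and 18.2% of all genes), with Ifng lower by 3.58 on the log2 scale, and Vegfa by 3.26. Both of these were tested through NK cells alone, and 1 of the 3 that rose through gamma delta T cells alone.

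Cell cycle genes were lower in members than in CD4 T cells, and some of them also than in CD8 and NK cells. The summed level of the list was 299 to 1591 CPM in members. It was 906 to 1715 CPM in CD4 T cells, 528 to 2009 CPM in CD8 T cells and 589 to 1997 CPM in NK cells. The range in members overlapped each of these. Of the list of 10, 8 were tested against CD4 T cells and 8 fell (13.6% of all genes), 3 of which passed the filter through CD4 T cells alone. Against CD8 T cells 4 of 7 fell (17.5%), 2 of them tested through CD8 T cells alone. Against NK cells the 2 tested, Stmn1 and Hmgb2, fell (18.2%), 1 of them tested through NK cells alone. Mki67, a marker of dividing cells, stood at 19.3 ± 31.6 CPM (SD, n = 11) against 69.9 ± 26.8 CPM, a log2 difference of -1.85 ± 0.41 (SE), and Top2a differed by -2.15 and Stmn1 by -2.04. The highest Mki67 level among the members, 100.3 CPM, overlapped the CD4 range of 33.9 to 116 CPM.

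Cdkn1a, the p21 gene that all mice outside WT carried in 1 altered copy, was detected in 24.0% of members, 18.8% of CD4 T cells, 11.6% of CD8 T cells and 21.01% of NK cells. It stood at 30.7, 96.9 and 151 CPM (lowest, median and highest) in gamma delta T cells, at 17.6, 35.9 and 93.9 CPM in CD4 T cells, at 14.1, 24.2 and 33.8 CPM in CD8 T cells and at 55.0, 70.5 and 103 CPM in NK cells. By edgeR the difference from CD4 T cells was 1.06 ± 0.20 (SE, adjusted p 0.000584), higher in 10 of 11 libraries, and from CD8 T cells 1.79 ± 0.16 (adjusted p 4.92e-08), higher in 11 of 11. The difference from NK cells was 0.40 ± 0.15 (adjusted p 0.0449) and lost its call with DESeq2 (adjusted p 0.0943) among other alternatives. Of the p53 target genes (12 in the list), 6 were tested against CD4 T cells, where Cdkn1a rose and Trp53inp1 (-0.80) and Ccng1 (-0.48) fell (13.7% and 13.6% of all genes). Of 8 against CD8 T cells Cdkn1a rose and Bbc3 (-0.57) fell (17.8% and 17.5%). Of 6 against NK cells Cdkn1a and Trp53inp1 (0.43) rose and 0 fell (19.2% and 18.2%). So few calls are not read as a result about the list. In the later deposit alone Ccng1 and Bbc3 lost their calls (adjusted p 0.0596 and 0.198).

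Immediate early genes, which respond to stimulation and also to tissue dissociation, were higher in members than in CD4 and CD8 T cells. Of the 12 genes of this list, 7 of 10 rose against CD4 T cells and 8 of 10 against CD8 T cells (13.7% and 17.8% of all genes), none of them tested through gamma delta T cells alone, among them Fosb (1.09 and 1.54) and Dusp1 (0.66 and 1.46). Against NK cells 4 of 10 rose and 1 fell (19.2% and 18.2%), Atf3 (-0.999), which turned to 0.67 in cells of 2000 to 8000 UMIs. Fos (0.54) lost its call against CD4 T cells in the later deposit alone (adjusted p 0.188). Their summed level in members ran from 3825 to 11630 CPM over the libraries. What part dissociation had in these differences was not tested.

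The share of gamma delta T cells was compared between genotypes. They made up 0.970% of barcodes in WT_1 (exact 95% interval 0.727% to 1.27%). In order of replicate, the p21Het libraries had 1.62%, 0.669% and 0.580%, the p21mTert libraries 1.38%, 0.970%, 1.19%, 1.61% and 0.254%, and the p21mTertCD libraries 1.28% and 0.929%. The highest and the lowest share lay in p21Het_1 and p21mTert_5, and the 3 replicated groups overlapped. The means were 0.958% ± 0.579 (SD, n = 3) in p21Het, 1.08% ± 0.520 (n = 5) in p21mTert and 1.10% ± 0.249 (n = 2) in p21mTertCD. The difference p21mTert minus p21Het was 0.124 percentage points (2-sided exact permutation p = 0.786), p21mTert minus p21mTertCD was -0.0233 (p = 0.952) and p21mTertCD minus p21Het was 0.147 (p = 0.7), each with an adjusted p of 0.952 over 6 tests. Before adjustment these designs cannot go below 0.0179, 0.0476 and 0.1, so that the last cannot reach 0.05. After adjustment over the 6 tests none of the 3 could fall under 0.05, whatever the shares. That none passed is therefore no result about the genotypes. As shares of all T cells by CD3, members made up 5.52% in WT, 6.75% ± 4.98 in p21Het (SD, n = 3), 5.36% ± 2.45 in p21mTert and 3.50% ± 0.0628 in p21mTertCD, which turned the sign of all 3 differences.

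**Figure D3:**
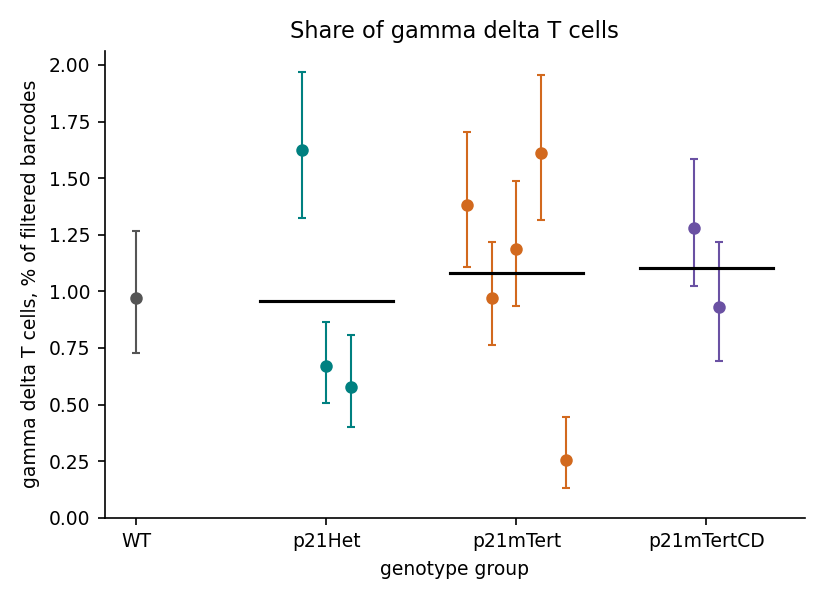
Gamma delta T cells as a percent of barcodes past the filter (y axis). Points are libraries by genotype (x axis) with exact 95% intervals for counting error, horizontal lines are group means, and p21mTert_5 is the lowest point (0.254%).

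No gene differed between genotypes within gamma delta T cells at an adjusted p under 0.05. The UMIs of the members were summed per library, and edgeR's quasi-likelihood test called 0% of 6431 genes in each of the 3 contrasts over the 10 replicated libraries. At an unadjusted p under 0.05 there were 273 genes for p21mTert minus p21Het, 257 for p21mTert minus p21mTertCD and 305 for p21mTertCD minus p21Het. Each was a smaller share of the 6431 genes than the 0.05 that chance alone would mark. DESeq2 called 1, 0 and 1 of the genes tested, in both cases Wfdc2, an airway epithelial gene (-3.58 for p21mTert minus p21Het, adjusted p 2.96e-05). None of the gene groups described above had a called member.

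Cdkn1a, the altered locus, stood at 105 CPM in WT_1, at 61.0, 142 and 151 CPM in p21Het, at 143, 86.8, 63.8, 73.3 and 30.7 CPM in p21mTert and at 96.9 and 115 CPM in p21mTertCD members. The groups overlapped, and the log2 difference p21mTert minus p21Het was -0.43 ± 0.37 (SE), with an adjusted p of 1.00 by edgeR. Tert, the gene that mTert stands for, was found in 6 members in all, with 3 UMIs in p21mTert_3, 2 in p21mTertCD_1 and 1 in p21Het_3 and 0 in the other 8 libraries. At this depth no difference in Tert could be detected. The genotype of the members was therefore not checked by Tert.

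Cd163l1 stood at 828 CPM in WT_1, at 1104, 562 and 289 CPM in p21Het, at 1110, 569, 745, 651 and 92.0 CPM in p21mTert and at 688 and 767 CPM in p21mTertCD members. Il17a varied more, at 481 CPM in WT_1, at 994, 98.8 and 8.88 CPM in p21Het, at 1279, 129, 403, 379 and 10.2 CPM in p21mTert and at 899 and 522 CPM in p21mTertCD members. Both were lowest in p21Het_3 or p21mTert_5, and both overlapped between the 3 replicated groups. Both were also highest in the first-deposit libraries p21Het_1 and p21mTert_1.

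RNA of other lung cells was present in the sums and differed between libraries. The summed level of 4 epithelial markers (Sftpc, Sftpa1, Scgb1a1 and Epcam) in members was 1269 to 9270 CPM in p21Het, 2218 to 2422 CPM in p21mTert, 977 to 1474 CPM in p21mTertCD and 1576 CPM in WT. It rested on p21Het_2, where Sftpc, the surfactant protein C gene, stood at 5582.5 CPM against 232 to 704 CPM elsewhere. The same list ran from 1006 to 9030 CPM in CD4 T cells and Sftpc was detected in 90.1% of members, 91.6% of CD4 T cells and 89.9% of NK cells. Endothelial markers (4 genes) summed to 84.6 to 266 CPM in p21Het, 20.5 to 111 CPM in p21mTert, 29.5 to 63.9 CPM in p21mTertCD and 59.7 CPM in WT members. Over all 11 libraries, myeloid markers summed to 181 to 4889 CPM and erythroid markers to 70.8 to 9039 CPM in members. The genes that DESeq2, a term for deposit, the later deposit alone or the fit without p21Het_1 called between p21mTert and p21Het were lower in p21mTert. They were Wfdc2, Sftpd, Vwf, Lyve1 and Ptprb, of which the last 3 are endothelial genes, and also Ptprf, Dmkn, Ece1, Chchd10 and Socs3. Without p21Het_1, Ece1, Chchd10 and Socs3 differed by -2.80, -2.37 and -1.71. The part of free RNA in these calls was not tested.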

How the data were processed

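The deposited matrices hold raw UMI counts for 31053 genes per cell barcode, mapped to mm10 with Cell Ranger per the submitters' processing notes; the version is given differently in the sources, so none is stated. The cell filters and the normalization that the labels' protocols describe are not in the deposited counts, and the UMI and mitochondrial limits were applied here. The 6 share differences were tested with 2-sided exact permutation over libraries, adjusted by Benjamini-Hochberg. Tests on summed counts used R 4.3.3 and edgeR 4.0.16 (quasi-likelihood, TMM scaling, filterByExpr, adjusted p under 0.05), with the genes of the cell rules left out of the class comparisons, and DESeq2 1.42.0 as an alternative. SE is the log2 fold change divided by the root of F. Genes with 3 or fewer UMIs in a class are given as ratios with counting intervals. The tests were checked on simulated data. For the genotypes, 4-fold changes were planted in p21mTert only, and 74.9% to 83.8% of them were called in the contrasts with p21mTert. The simulation gave all genes 1 fixed spread between libraries, which was not estimated from these data. These percentages therefore do not give the power for genes that vary more between libraries. The contrast p21mTertCD minus p21Het held no planted change, so its power was not checked. Scrublet (scanpy 1.11.5, Python 3.11.15) scored doublets. With its default thresholds 0% to 3.59% of a library were marked, so the highest-scoring 0.8% per 1000 barcodes were marked and left out only as an alternative. Positions and sequences come from GENCODE M21 (GRCm38), where 30934 gene identifiers matched.

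The members, gene lists and classes were chosen with earlier results of these data known. The genes named are those of 24 lists, with Cdkn1a and Tert, and for each class comparison up to 10 per direction with the largest fold change among called genes, at least 50 CPM in the higher class and 1 direction in every library. Genes called between p21mTert and p21Het by DESeq2, a term for deposit, the later deposit alone or a left-out library are named as well. Those called without a filter on low counts are not named. Some of the planned results are not reported here. Intervals cover counting error only. The alternatives were other normalizations, filters, thresholds, denominators and depths, doublets left out, deposits and left-out libraries.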

Additional observations from a re-analysis of the deposited data

Results flagged for a closer look

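In p21mTert, the only group with 4 or more libraries, 16 measures of gamma delta T cells were examined for a library far from the other 4, and 2 had one. For a single measure chance marks about 1 in 20, but several of the 16 overlap, so the 2 cannot be set against that rate. The library p21mTert_5, with 12 members, had the lowest share of members with Cd163l1, 8.333% against 59.41% in the nearest library. This value rests on 1 member. Its gap, 0.7103 of the range, only just passed the limit, and that of Trdv4 in the same library, 0.7036, just missed it. The library p21mTert_1, the only p21mTert library of the first deposit, had the lowest share of members with Trgv2, 22.09% against 41.67%.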

How the results depend on the processing

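No share difference had an unadjusted exact permutation p under 0.05 in any alternative, but many alternatives could not give one. The smallest possible p for p21mTertCD minus p21Het was 0.1 or more in all. For p21mTert minus p21mTertCD it was 0.06667 or more with 1 library left out. The later deposit alone allowed no less than 0.06667, and the replicate block no less than 0.25. That these did not pass is no result. Where a p under 0.05 was possible, the lowest was 0.3333. The directions of the differences were not stable. For the gamma delta share, p21mTert minus p21Het was -1.384 points among CD3 barcodes and ran from -0.06503 to 0.4574 when 1 library was left out. For p21mTert minus p21mTertCD it was 1.861 among CD3 barcodes, 0.02926 without doublets and -0.1993 to 0.1835 with 1 library left out, and for p21mTertCD minus p21Het it was -3.245 among CD3 barcodes and -0.04171 to 0.4807. Correlations of same-numbered libraries were -0.137 to 0.25, and those of the other pairs -0.222 to 0.222. With so few libraries, and with values of p21mTertCD_1 and p21mTertCD_2 that mirror each other, this could not decide whether replicate numbers pair the samples. With the replicate block, the gamma delta share differences were 0.2227, 0.07143 and -0.04171 points, and no gene was called between genotypes (0 in each contrast).

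For genes between genotypes (p21mTert minus p21Het, p21mTert minus p21mTertCD, p21mTertCD minus p21Het), no filter on low counts called 194, 73 and 139 of 15850 genes, against 0 of 6431. DESeq2 called 1 in the first and 1 in the last, a term for deposit 4 in the first, and the later deposit alone 6 and 3. Leaving out 1 library gave 0 to 10, 0 to 1 and 0 to 4, the highest without p21Het_1, p21mTertCD_1 and p21Het_1. Counts against CD4, CD8 and NK cells stayed within 1.5 times. Of 312 called gene results, 276 kept call and direction in every alternative. Atf3 against NK cells turned to 0.67 in cells of 2000 to 8000 UMIs, and Cdkn1a for p21mTertCD minus p21Het, not called, ran from -0.5046 to 0.202 with 1 library left out, above 0 without p21Het_2, p21Het_3 (0.108) or p21mTertCD_1 (0.006577). The causes were not tested. The libraries held 12 to 101 members each.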
